A study of Homo sapiens with 8 samples.

Results

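WPMY-1 and BPH-1 are the stromal and the epithelial side of the human prostate in culture, and the question here was which genes answered RWF extract differently in them. The measure was the interaction, the RWF minus vehicle difference of WPMY-1 cells minus the RWF minus vehicle difference of BPH-1 cells, on all 8 arrays. A positive interaction says that the RWF difference was higher in WPMY-1 cells than in BPH-1 cells. Of 67528 transcript clusters (groups of probes that read 1 gene or locus), 4 had an interaction with an adjusted p under 0.05, which is 0.00592% of those tested, 3 of them positive (0.00444%) and 1 negative (0.00148%). These were LY96, CXADR and 2 clusters with no gene symbol. Each of them changed in WPMY-1 cells, with a BPH-1 difference between -0.11 and 0.11 on the log2 scale. No gene passed this test with RWF differences of opposite sign that each had an unadjusted p under 0.05, or with a change in BPH-1 cells alone. Without the interaction's adjusted test, 69 of 22465 genes (0.307%) had such opposite differences.

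The 4 groups, of 2 arrays each, were WPMY-1 cells with RWF, WPMY-1 cells with vehicle, BPH-1 cells with RWF and BPH-1 cells with vehicle. RWF is an extract of the plant Rauwolfia vomitoria and was given at 250 μg/ml for 24 h. WPMY-1 is an immortalized line of prostate stromal myofibroblasts and was grown in DMEM, while BPH-1 is an immortalized line of prostate epithelium from benign hyperplasia and was grown in RPMI1640, so that line and medium cannot be told apart. Each line stands for its cell type as 1 line only. The lines matched their labels. Of 21 measured stromal markers, 19 were higher in vehicle-treated WPMY-1 than in vehicle-treated BPH-1 cells, and of 18 epithelial markers 17 were higher in BPH-1 cells (limma, adjusted p under 0.05), where 12.5% of all genes were higher in WPMY-1 and 12.7% in BPH-1 cells. Values are log2 expression after RMA, so a difference of 1 is a doubling. In bulk RNA, fewer cells of a state and less RNA per cell cannot be told apart.

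Myofibroblasts are contractile cells that lay down collagen. Their contractile genes are driven by serum response factor, which binds the CArG box, and by the coactivators YAP and TAZ, which act on DNA through the TEAD factors and whose textbook targets are CCN1 and CCN2. Basal prostate epithelium forms sheets held by junction proteins and keratins, and both cell types can sense bacterial products through toll-like receptors.

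3 promoters are shown as examples of the TEAD motif and the CArG box in genes described below. They are the 250 bases before the start of CCN2 (chr6:131951373-131951622, minus strand), MYPN (chr10:68109238-68109487, plus strand) and CNN2 (chr19:1026358-1026607, plus strand), from RefSeq on GRCh38.p14, written 5′ to 3′ along the gene. Capitals mark the TEAD motif GGAATG on either strand in CCN2 and MYPN, and the CArG box, searched on both strands, in CNN2.
CCN2: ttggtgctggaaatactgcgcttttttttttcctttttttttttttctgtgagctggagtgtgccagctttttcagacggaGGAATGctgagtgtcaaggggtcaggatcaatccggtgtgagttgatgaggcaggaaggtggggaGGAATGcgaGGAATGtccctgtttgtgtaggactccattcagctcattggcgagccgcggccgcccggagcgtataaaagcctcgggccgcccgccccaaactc
MYPN: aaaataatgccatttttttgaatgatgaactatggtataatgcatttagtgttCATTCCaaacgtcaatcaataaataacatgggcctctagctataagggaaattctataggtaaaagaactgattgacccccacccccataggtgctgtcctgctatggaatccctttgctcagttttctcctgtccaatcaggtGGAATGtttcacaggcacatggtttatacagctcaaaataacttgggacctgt
CNN2: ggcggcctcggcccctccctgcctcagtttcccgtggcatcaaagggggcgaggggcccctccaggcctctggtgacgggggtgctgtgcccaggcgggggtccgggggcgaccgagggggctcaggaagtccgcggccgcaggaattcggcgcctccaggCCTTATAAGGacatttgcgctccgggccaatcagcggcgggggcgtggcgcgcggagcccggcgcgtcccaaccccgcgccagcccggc
The CCN2 window held 3 TEAD motifs and the MYPN window 2. Among all 27305 promoters of this length, 11.9% held a TEAD motif and 1.14% a CArG box. A match is a description of these letters and says nothing of binding in these cells.

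The first response in WPMY-1 cells alone was that of LY96, which encodes MD-2, the partner that lets toll-like receptor TLR4 bind lipopolysaccharide. On the 2 RWF-treated WPMY-1 arrays, LY96 read 5.32 and 5.30, against 3.82 and 3.65 on the vehicle arrays. In BPH-1 cells it read 1.99 and 2.10 with RWF and 1.89 and 1.98 with vehicle. All 4 BPH-1 arrays lay below all 4 WPMY-1 arrays. The arrays with RWF lay above those with vehicle in both lines, though only just so in BPH-1 cells. LY96 rose 2.97-fold in WPMY-1 cells (1.57 on the log2 scale, SE 0.09, adjusted p = 0.00146), against a difference of 0.11 in BPH-1 cells, and its interaction was 1.46 (SE 0.13, adjusted p = 0.0455). The gap between the lines was 3.26 with RWF and 1.80 with vehicle. The table has no detection call, so olfactory receptor genes, which prostate cells do not use, gave a guide to background: 95% of their 477 clusters read under 4.45 in vehicle-treated WPMY-1 and under 4.58 in vehicle-treated BPH-1 cells. By that guide LY96 was dim in both lines with vehicle and above the limit only in WPMY-1 cells with RWF.

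CXADR encodes the coxsackievirus and adenovirus receptor, an adhesion protein of epithelial tight junctions. It read 7.10 and 7.08 in RWF-treated WPMY-1 cells, against 5.69 and 5.70 with vehicle. In BPH-1 cells the values were 8.18 and 8.02 with RWF and 8.31 and 8.10 with vehicle. The BPH-1 arrays overlapped between treatments, and the WPMY-1 arrays did not, as was so for the WPMY-1 arrays of 58.5% of all genes. CXADR rose 2.63-fold in WPMY-1 cells (adjusted p = 0.00158), with an interaction of 1.5 (SE 0.13, adjusted p = 0.0455). The difference between the lines, WPMY-1 minus BPH-1, was -1.01 with RWF and -2.51 with vehicle, and CXADR was not dim in either line.

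The 2 unnamed clusters behaved alike in one respect, a BPH-1 difference near 0. TC09001869.hg.1 read 5.66 and 5.54 in RWF-treated WPMY-1 cells and 3.98 and 4.15 with vehicle, and in BPH-1 cells it read 3.92 and 4.09 with RWF and 3.97 and 4.0 with vehicle. Only the 2 RWF-treated WPMY-1 arrays stood out, with an interaction of 1.51 (SE 0.14, adjusted p = 0.0455). TC11002610.hg.1, the single negative call, read 2.67 and 2.73 in RWF-treated WPMY-1 cells against 4.06 and 3.95 with vehicle, and in BPH-1 cells it read 2.12 and 2.08 with RWF and 2.06 and 2.13 with vehicle. Its interaction was -1.31 (SE 0.11, adjusted p = 0.0455). Both were dim with vehicle in both lines. All 4 calls sat just under the threshold: with 1 array left out, none of them passed in 7 of 8 fits, and without WPMY-1 vehicle replicate 2 there were 18 calls that held 3 of the 4 (not CXADR). Quantile normalization, median centring, the replicate number as a block and each cluster's own variance also left 0 calls. The sign of each interaction was kept under every alternative that gave a value. The 4 calls came from these same arrays, so a kept sign was likely in advance.

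**Figure D1:**
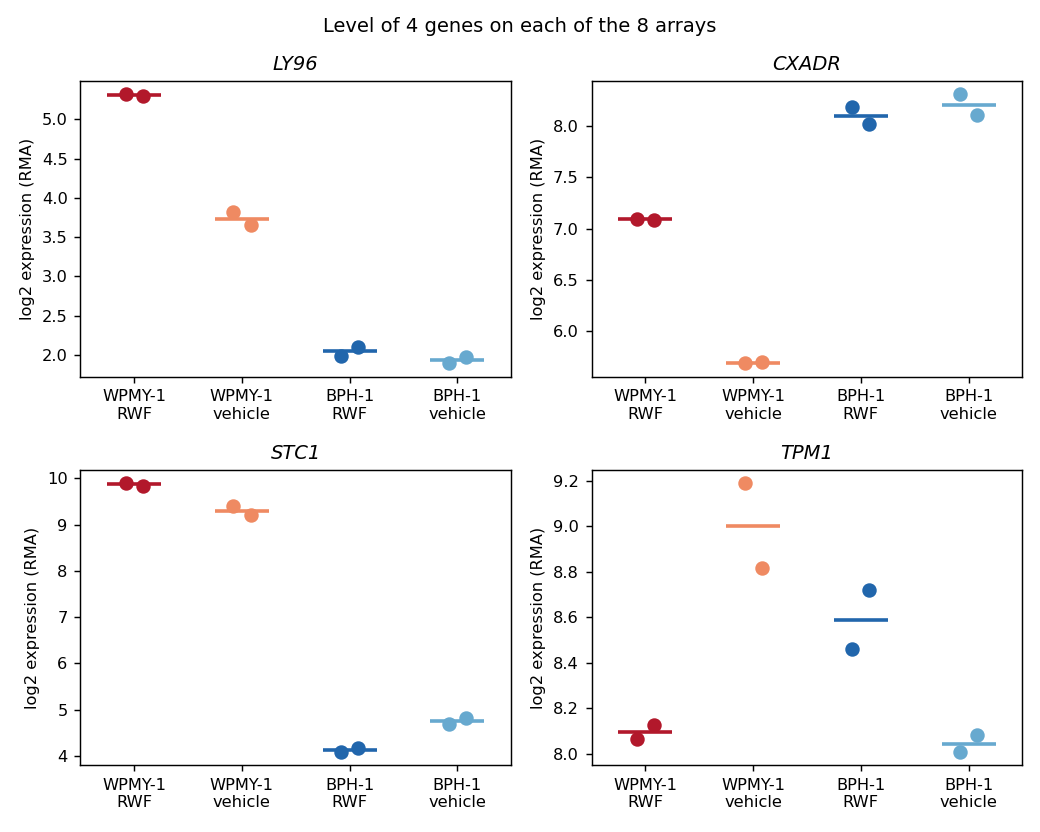
Log2 expression of LY96, CXADR, STC1 and TPM1 on each of the 8 arrays, with points for arrays and bars for the mean of the 2 arrays of a group. LY96 and CXADR differ between RWF and vehicle in WPMY-1 cells by 1.57 and 1.40, while STC1 and TPM1 move in opposite directions in the 2 lines.

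Within the lines, RWF changed 1033 clusters in WPMY-1 cells (1.53%) and 27 in BPH-1 cells (0.04%), or 448 of 22465 genes (1.99%) and 5 genes (0.0223%). Without 1 array these counts lay between 205 (without WPMY-1 RWF replicate 1) and 1042 clusters in WPMY-1 cells and between 1 and 22 in BPH-1 cells. Of the 200 genes (0.89%) that rose in WPMY-1 cells, 172 had a positive difference in BPH-1 cells too, and of the 248 (1.1%) that fell, 197 had a negative one, where 59.2% of all genes had the same sign in both lines. The median difference of the genes that rose was 0.60 in WPMY-1 and 0.22 in BPH-1 cells, and that of the genes that fell was -0.62 in WPMY-1 and -0.12 in BPH-1 cells. These genes were chosen on their WPMY-1 values, so the smaller BPH-1 medians are a description.

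When each gene was read by 1 cluster and only those 22465 were tested, 25 genes (0.111%) passed with an adjusted interaction p between 0.0109 and 0.0484. Of these, 14 interactions were positive and 11 negative. By their within-line differences, 12 genes had opposite signs with an unadjusted p under 0.05 in each line, 10 changed in WPMY-1 cells only, 1 in BPH-1 cells only (GABBR2) and 2 moved in the same direction in both (POLR1E and NTN4). POTEF, POTEI, POTEJ and POTEE count among the 12, but this family is near-identical in sequence and its probes may be shared, so they are uncertain. The other 8 of opposite sign were STC1, PITPNC1 and TLR6, higher with RWF in WPMY-1 cells, and TPM1, MYPN, FGF2, GBP1 and DACT1, lower there. The 10 of WPMY-1 cells only were LY96, CXADR, SLCO4C1, ICAM1 and IGHD2-2, which rose, and MYL9, FRMD6, CNN2, TRPC4 and ZFHX4-AS1, which fell. Within the lines, 1350 genes passed in WPMY-1 and 39 in BPH-1 cells when only those 22465 were tested. The values that follow are those of the fit over all clusters, where these 25 genes other than LY96 and CXADR had adjusted interaction p of 0.0629 or more.

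**Figure D2:**
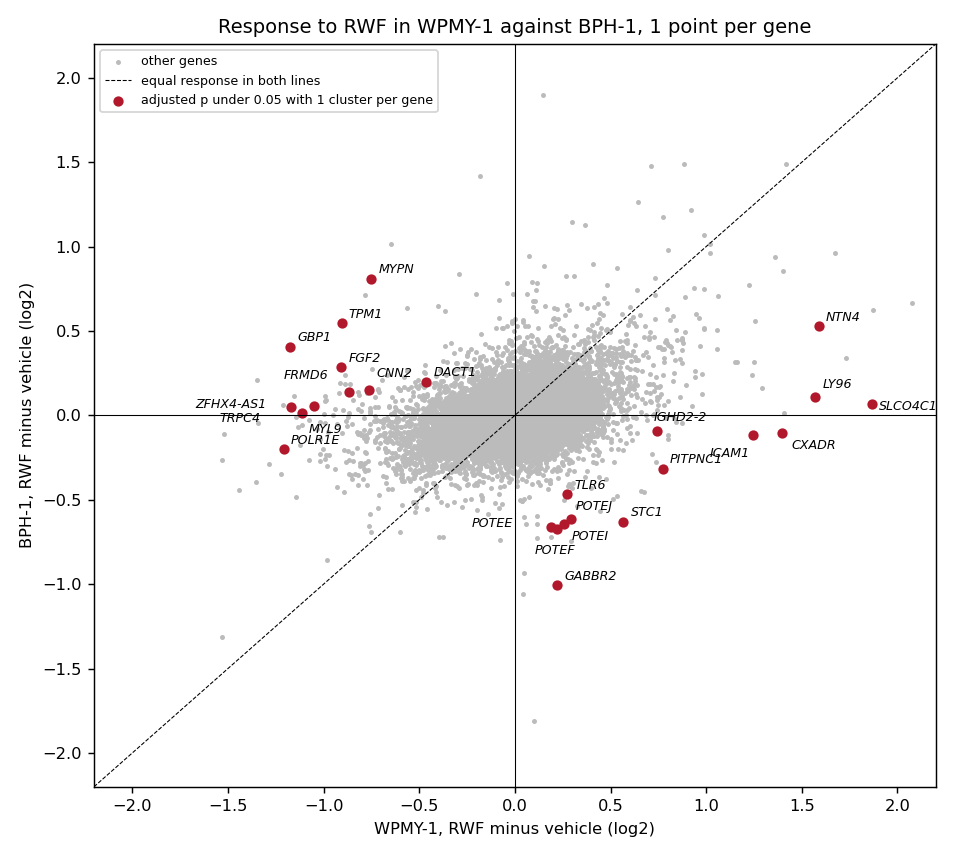
RWF minus vehicle difference (log2) in WPMY-1 cells on the x axis and in BPH-1 cells on the y axis for 22465 genes, with the 25 genes called with 1 cluster per gene in red and a dashed line of equal response. The red genes lie far from that line, in the lower right (STC1, PITPNC1, TLR6), in the upper left (MYPN, TPM1, GBP1) and along the x axis (LY96, SLCO4C1, MYL9).

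STC1, or stanniocalcin, a secreted glycoprotein that acts on calcium and phosphate handling, led the opposite responses. It read 9.89 and 9.84 in RWF-treated WPMY-1 cells, against 9.40 and 9.21 with vehicle. In BPH-1 cells it read 4.09 and 4.17 with RWF and 4.69 and 4.82 with vehicle. The arrays did not overlap between treatments in either line, and the line with the higher level was the one with the positive difference. Over all genes, the arrays were apart for 58.5% in WPMY-1 and 35.3% in BPH-1 cells. They were apart in both lines with opposite signs for 5.92%. STC1 rose by 0.57 in WPMY-1 cells (SE 0.09, adjusted p = 0.0315), and the BPH-1 difference was -0.63 (SE 0.09, adjusted p = 0.0986). Its interaction was 1.20 (SE 0.13), with an adjusted p of 0.0776 over all clusters and 0.0284 with 1 cluster per gene. The lines differed by 5.74 with RWF and by 4.54 with vehicle. The BPH-1 level with vehicle was close to the background guide, and that with RWF under it.

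TPM1, the tropomyosin that runs along actin filaments, went the other way. It read 8.07 and 8.13 in RWF-treated WPMY-1 cells, against 9.19 and 8.82 with vehicle, and 8.46 and 8.72 in RWF-treated BPH-1 cells, against 8.01 and 8.08 with vehicle. The order of the lines was turned: with vehicle both WPMY-1 arrays were above both BPH-1 arrays, and with RWF both were below. TPM1 fell by 0.91 in WPMY-1 cells (SE 0.13, adjusted p = 0.0214), and in BPH-1 cells the difference was 0.54 (SE 0.13, adjusted p = 0.419). The interaction was -1.45 (SE 0.19, adjusted p = 0.109 over all clusters, 0.0335 with 1 cluster per gene). MYPN, myopalladin, which anchors proteins at the sarcomere of muscle, also differed in opposite directions. MYPN read 5.68 and 5.73 in RWF-treated WPMY-1 cells against 6.44 and 6.47 with vehicle, and 5.68 and 5.99 in RWF-treated BPH-1 cells against 4.83 and 5.22 with vehicle. It fell by 0.75 in WPMY-1 cells (adjusted p = 0.048), beside a BPH-1 difference of 0.81 (adjusted p = 0.16), and the lines differed by -0.13 with RWF, where their arrays overlapped, and by 1.43 with vehicle.

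CCN2 and CCN1, the secreted matricellular proteins whose genes are YAP/TEAD targets, had opposite signs in the lines as well. These and the next genes were chosen after their values were seen. CCN2, whose promoter with 3 TEAD motifs is printed above, read 8.83 and 8.26 in RWF-treated WPMY-1 cells against 9.52 and 9.15 with vehicle. In BPH-1 cells it read 7.58 and 8.08 with RWF against 7.0 and 7.24 with vehicle. The groups did not overlap in either line, but the replicates lay far apart. Of all genes, 5.92% had no overlap in either line with opposite signs. The CCN2 differences were -0.79 in WPMY-1 (adjusted p = 0.129) and 0.71 in BPH-1 cells (adjusted p = 0.629), with an interaction of -1.5 (SE 0.32, adjusted p = 0.3). For CCN1 they were -0.56 in WPMY-1 and 0.64 in BPH-1 cells, with an interaction of -1.20 (SE 0.23, adjusted p = 0.254). Neither passed the adjusted test in a line or between the lines.

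MIR21, the locus of a microRNA found at high levels in many proliferating and fibrotic tissues, had the most negative interaction of the 16 opposite genes plotted here. Its mature product is shown with the seed, bases 2 to 8, in capitals (chr17:59841273-59841294, plus strand, RefSeq on GRCh38.p14).
hsa-miR-21-5p: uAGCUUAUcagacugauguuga
The array read the MIR21 locus, not the mature strand alone. MIR21 read 5.56 and 5.94 in RWF-treated WPMY-1 cells against 6.65 and 6.15 with vehicle, and 7.90 and 8.16 in RWF-treated BPH-1 cells against 6.75 and 7.28 with vehicle. The lines differed by -2.28 with RWF (adjusted p = 0.000205) and by -0.62 with vehicle (adjusted p = 0.107). The interaction was -1.67 (SE 0.31, adjusted p = 0.246).

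Across all genes, an unadjusted p under 0.05 was found for 21.7% in WPMY-1 and for 6.34% in BPH-1 cells. In 69 genes (0.307%) it was found in each line with opposite signs, 43 positive in WPMY-1 cells (0.191%) and 26 negative there (0.116%). The number that unrelated responses of the lines would give was not tested. The untreated levels of the 43 and the 26 genes differed. The 43 genes had a median vehicle level of 5.00 in WPMY-1 and 5.95 in BPH-1 cells. Of them, 16 were dim in WPMY-1 cells (37.2%), against 4 in BPH-1 cells (9.3%), where 28.7% and 29.8% of all genes were. The 26 genes had a median of 7.39 in WPMY-1 and 6.62 in BPH-1 cells. The interaction and the untreated difference use the same vehicle arrays, so the 2 are set side by side and were not related by a test. Examples with the higher untreated level in BPH-1 cells were SQOR, the mitochondrial sulfide oxidase (5.44 with RWF and 4.91 with vehicle in WPMY-1 cells, 8.05 with RWF and 8.53 with vehicle in BPH-1 cells), and SESN3, a stress-induced sestrin (differences of 0.36 in WPMY-1 cells, where it was under the background guide with RWF and with vehicle, and -0.36 in BPH-1 cells). Examples with the higher untreated level in WPMY-1 cells were GBP1, an interferon-induced GTPase, which fell by 1.18 in WPMY-1 cells beside a BPH-1 difference of 0.41, and FGF2, a fibroblast growth factor, which fell by 0.91 beside 0.29.

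**Figure D3:**
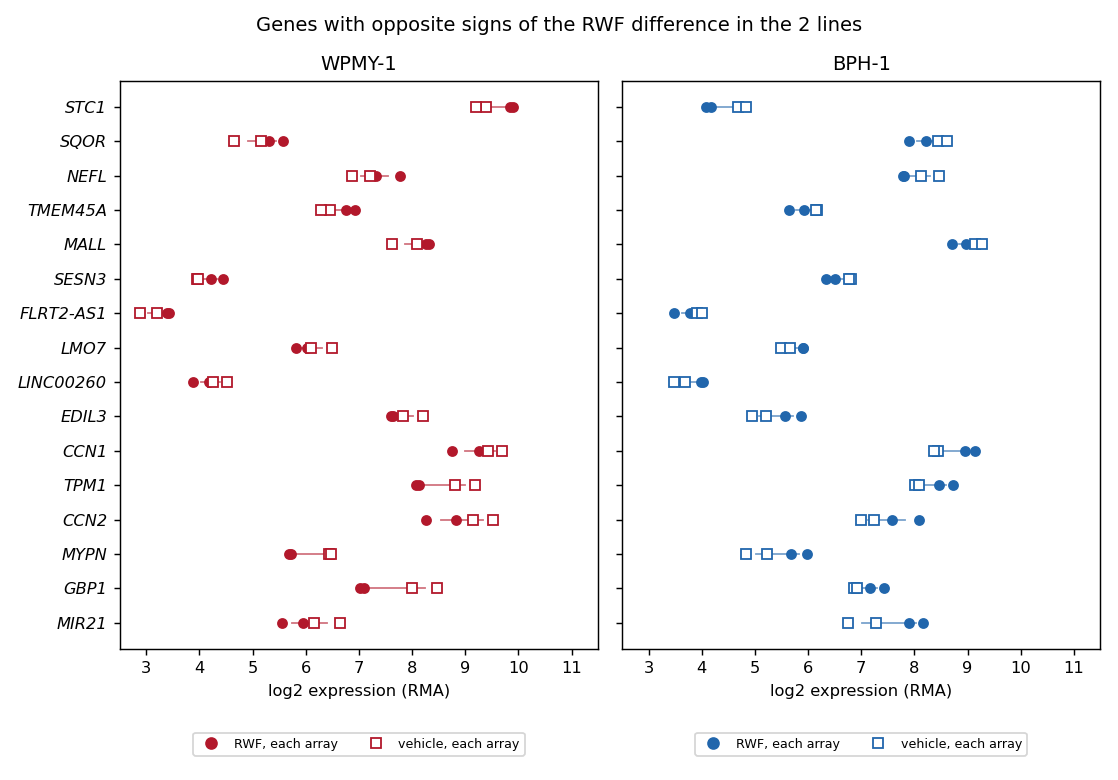
Log2 expression on each array of 16 genes with RWF differences of opposite sign in WPMY-1 (left) and BPH-1 cells (right), filled for RWF and open for vehicle, ordered by interaction. STC1 lies between 9.21 and 9.89 in WPMY-1 and between 4.09 and 4.82 in BPH-1 cells, whereas TPM1, CCN1 and GBP1 lie at closer levels in the 2 lines.

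Genes that changed in WPMY-1 cells with little or no change in BPH-1 cells were more frequent. 260 genes (1.16%) passed the adjusted test in WPMY-1 cells, had an unadjusted interaction p under 0.05 and were under 1.3-fold with an unadjusted p of 0.05 or more in BPH-1 cells, 94 of them higher with RWF and 166 lower. Most genes met the BPH-1 part of this rule, 21004 of all 22465. Of the genes called within WPMY-1 cells, 96 of the 200 that rose and 169 of the 248 that fell met it. The 94 genes that rose had a median vehicle level of 5.65 in WPMY-1 and 5.95 in BPH-1 cells. Of them, 18 were dim in WPMY-1 cells (19.1%, where 28.7% of all genes were) and 26 in BPH-1 cells (27.7%, where 29.8% were). The 166 genes that fell had a median vehicle level of 7.45 in WPMY-1 and 6.84 in BPH-1 cells. Of these, 30 were dim in BPH-1 cells (18.1%, where 29.8% of all genes were), and their low values can be background. ICAM1, the adhesion molecule that binds leukocytes, had an untreated difference between the lines of -0.11 (adjusted p = 0.683). It read 9.56 and 9.19 in RWF-treated WPMY-1 cells against 8.03 and 8.23 with vehicle, and 8.09 and 8.14 in RWF-treated BPH-1 cells against 8.19 and 8.27 with vehicle. ICAM1 rose 2.37-fold in WPMY-1 cells (adjusted p = 0.00595), with a BPH-1 difference of -0.12 and an interaction of 1.36 (SE 0.18, adjusted p = 0.117 over all clusters, 0.0341 with 1 cluster per gene). SLCO4C1, an organic anion transporter, rose by 1.86 in WPMY-1 cells (adjusted p = 0.00157) beside 0.07 in BPH-1 cells, and its vehicle levels of 4.03 in WPMY-1 and 2.63 in BPH-1 cells were both dim. CCL2, the monocyte chemokine, fell by 0.77 in WPMY-1 cells (adjusted p = 0.018) beside 0.13 in BPH-1 cells, where it was dim with vehicle and 6.76 lower than in vehicle-treated WPMY-1 cells.

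The contractile and actin-binding genes had the most negative median interaction of the 39 lists. Of 21 measured members, 8 fell in WPMY-1 cells and none rose, and in BPH-1 cells none passed the adjusted test and TPM1 alone had an unadjusted p under 0.05. The interaction was negative for 19 of 21, with an unadjusted p under 0.05 for 14 negative ones and no positive one, where 3.69% of all genes had such a negative interaction. The list's median was -0.36, against 0.04 for all genes, and it lay between -0.42 and -0.30 under every alternative. No interaction of the list passed the adjustment over all clusters, and this list was chosen with earlier results of these data known. MYL9, the regulatory light chain of smooth muscle myosin, read 9.74 and 9.65 in RWF-treated WPMY-1 cells against 10.83 and 10.79 with vehicle, and 7.47 and 7.54 in RWF-treated BPH-1 cells against 7.35 and 7.63 with vehicle. The WPMY-1 arrays were apart, as for 58.5% of all genes, and the BPH-1 arrays overlapped. MYL9 fell by 1.11 (adjusted p = 0.00371), with an interaction of -1.13 (SE 0.14, adjusted p = 0.109 over all clusters, 0.0315 with 1 cluster per gene). TGFB1I1, a focal adhesion protein also called Hic-5, fell by 0.99 (adjusted p = 0.0134), TAGLN, the actin-binding transgelin, by 0.79 (adjusted p = 0.00862), and CNN2, the calponin whose promoter with a CArG box is printed above, by 0.76 (adjusted p = 0.00789).

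Of the 21 contractile genes, 15 were higher in vehicle-treated WPMY-1 and 2 in vehicle-treated BPH-1 cells (adjusted p under 0.05), with a median untreated difference of 0.69. The untreated difference was 3.32 for MYL9 and 1.85 for TGFB1I1, and CNN2 was an exception at -0.42, with an RWF difference of 0.15 in BPH-1 cells. ACTA2, smooth muscle actin and the usual marker of myofibroblasts, had differences of -0.08 in WPMY-1 and 0.17 in BPH-1 cells, and MYH10, SMTN, LMOD1, CNN3 and MYLK had interactions between -0.20 and 0.14, so the list did not move as a whole. Of the 19 contractile promoters in RefSeq, 4 held a CArG box (21.1%), those of CNN2, TPM4, ACTG2 and MYLK. Of these 4 genes, CNN2 alone passed the adjusted test in WPMY-1 cells. MYL9 and TAGLN, which fell there, had no promoter entry and were not searched. The 10 YAP/TEAD promoters held no CArG box and 3 held a TEAD motif (30%). A TEAD motif was also in 5 of the 19 contractile promoters (26.3%), so it was not particular to the YAP/TEAD list. CCN1, CRIM1, TEAD1 and TEAD4 had no promoter entry.

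**Figure D4:**
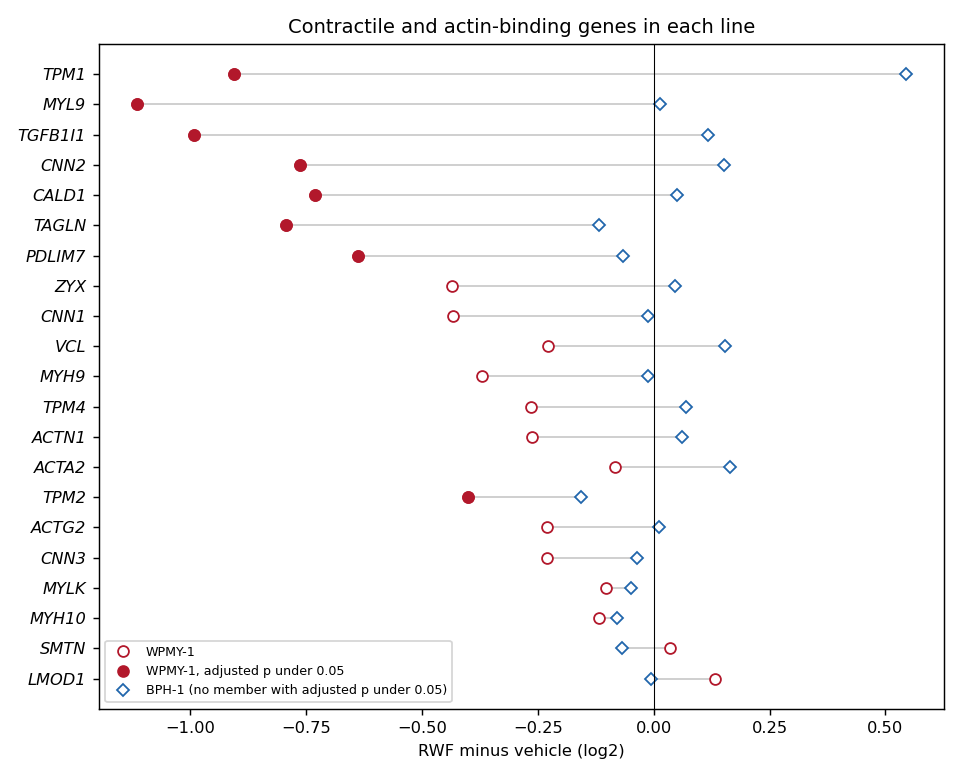
RWF minus vehicle difference (log2) of 21 contractile and actin-binding genes, circles for WPMY-1 (filled where the adjusted p was under 0.05) and diamonds for BPH-1 cells, ordered by interaction. The 8 filled circles lie between -1.11 and -0.40, while the BPH-1 values lie between -0.16 and 0.17 except for TPM1 at 0.54.

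YAP/TEAD targets and matrix genes are set beside all genes, of which 60.1% had a positive interaction and 3.69% a negative one with an unadjusted p under 0.05. Of 14 YAP/TEAD genes, 11 had a negative interaction, 7 with an unadjusted p under 0.05, and the median was -0.31, with -0.21 in WPMY-1 and 0.13 in BPH-1 cells. No member passed the adjusted test in either line, and 3 had a positive BPH-1 difference with an unadjusted p under 0.05. Besides CCN1 and CCN2, AMOTL2, a YAP-binding angiomotin, had an interaction of -0.54, while ANKRD1, another textbook YAP target, was positive in both lines (1.06 in WPMY-1 and 0.39 in BPH-1 cells, neither passing). Of 24 collagen and matrix genes, 20 had a negative interaction, 9 with an unadjusted p under 0.05. COL1A1, COL1A2 and COL6A3 fell by 0.61, 0.63 and 0.48 in WPMY-1 cells (adjusted p = 0.0209, 0.0307 and 0.0418), beside BPH-1 differences of -0.01, 0.01 and 0.04. Their untreated levels in WPMY-1 cells were 3.43, 4.42 and 4.64 above those in BPH-1 cells, where all 3 were still above the background guide. Tenascin (TNC) was an exception, with -0.75 in WPMY-1 and -0.69 in BPH-1 cells. Of 21 stromal markers 15 had a negative interaction (7 at an unadjusted p under 0.05, and 1 positive), and the part of this in the groups above was not tested. PRRX1, a mesenchymal transcription factor, fell by 0.82 in WPMY-1 cells (adjusted p = 0.0135).

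The interaction also varied with the level itself. Its median was 0.10 for genes at a mean level between 5 and 6 and -0.06 for those between 8 and 9, with 73.1% and 35.4% positive. The contractile, YAP/TEAD and matrix lists had median vehicle levels of 8.62, 7.90 and 8.28 in WPMY-1 and 7.16, 8.05 and 6.26 in BPH-1 cells. Their medians of -0.36, -0.31 and -0.16 stand beside -0.03 for all genes between 7 and 8 and -0.06 for those between 8 and 9, and the part of this drift in the lists was not tested.

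Of 16 measured toll-like receptor and innate sensing genes, 13 had a positive interaction (81.2%), where 60.1% of all genes did and 70.4% and 73.8% of those at a mean level between 3 and 4 and between 4 and 5. Of the 13, 5 had an unadjusted p under 0.05 (LY96, TLR6, TLR2, CD14 and TLR4), where 4.36% of all genes had such a positive interaction, and LY96, TLR2 and CD14 rose in WPMY-1 cells. TLR2, which senses bacterial lipoproteins, read 4.42 and 4.41 in RWF-treated WPMY-1 cells against 3.92 and 4.0 with vehicle, and 4.95 and 5.05 in RWF-treated BPH-1 cells against 5.23 and 5.30 with vehicle. The arrays were apart in both lines, in opposite directions, as for 5.92% of all genes. The WPMY-1 values all lay under the background guide of 4.45. TLR2 rose by 0.46 in WPMY-1 cells (adjusted p = 0.0374), with -0.26 in BPH-1 cells (adjusted p = 0.573). TLR6, its partner, had differences of 0.27 in WPMY-1 and -0.47 in BPH-1 cells (adjusted p = 0.127 and 0.134), and an interaction of 0.74 (SE 0.11, adjusted p = 0.166 over all clusters, 0.0484 with 1 cluster per gene). CD14, the lipopolysaccharide co-receptor, rose by 0.49 in WPMY-1 cells (adjusted p = 0.0405). TLR6 and CD14 were dim in WPMY-1 cells with vehicle, at 4.32 and 4.29. The adaptors MYD88, TIRAP and TICAM1 had interactions between 0.00 and 0.19, none past an unadjusted p of 0.05. 9 of the 16 genes were dim in vehicle-treated WPMY-1 and 7 in vehicle-treated BPH-1 cells, and genes at a mean level between 3 and 4 or 4 and 5 had median interactions of 0.07 and 0.09 in all, beside a list median of 0.11. Of 10 immune cell markers measured, 6 were dim in each line, and their median interaction was 0.13.

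Of 23 chemokine, cytokine and NF-kB response genes, 18 had a positive interaction (78.3%). The same was true of 60.1% of all genes and of 56.9% of those at a mean level between 6 and 7. The list's median vehicle levels were 6.54 in WPMY-1 and 6.95 in BPH-1 cells. An unadjusted p under 0.05 was found for 7 positive interactions and 1 negative one, that of CCL2. CXCL8, the neutrophil chemokine, had differences of 0.04 in WPMY-1 and -0.51 in BPH-1 cells (adjusted p = 0.196), and TNFAIP3, the NF-kB inhibitor A20, of 0.11 in WPMY-1 and -0.59 in BPH-1 cells. CXCL1 and CXCL6 fell in WPMY-1 cells by 0.76 and 0.60 and had BPH-1 differences of -0.66 and -0.69, with interactions of -0.10 and 0.09.

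Genes that differed in BPH-1 cells with little difference in WPMY-1 cells were fewer and rested on weaker tests. 87 genes (0.387%) had an unadjusted p under 0.05 and at least 1.3-fold in BPH-1 cells, under 1.3-fold and an unadjusted p of 0.05 or more in WPMY-1 cells, and an unadjusted interaction p under 0.05, 52 of them higher and 35 lower with RWF. GABBR2, which encodes part of the metabotropic GABA receptor, was the one that passed the adjusted test in BPH-1 cells. It read 5.20 and 5.06 in RWF-treated WPMY-1 cells against 4.86 and 4.96 with vehicle, and 6.23 and 5.96 in RWF-treated BPH-1 cells against 7.14 and 7.07 with vehicle. The WPMY-1 difference was 0.22, while GABBR2 fell by 1.01 in BPH-1 cells (SE 0.11, adjusted p = 0.0388), with an interaction of 1.23 (SE 0.15, adjusted p = 0.109 over all clusters, 0.0315 with 1 cluster per gene). MMP13, a collagenase, read between 3.51 and 3.70 on the 4 WPMY-1 arrays, where it was dim, and 5.81 and 5.70 in RWF-treated BPH-1 cells against 7.97 and 7.16 with vehicle. The MMP13 difference in BPH-1 cells was -1.81 (SE 0.22, adjusted p = 0.0507), and the 2 vehicle arrays lay far apart. Its interaction of 1.91 (adjusted p = 0.175) passed only without BPH-1 vehicle replicate 2 (2.32, adjusted p = 0.0335).

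TGM2, a transglutaminase that cross-links proteins, had a difference of 0.05 in WPMY-1 cells, and in BPH-1 cells it read 8.39 and 8.38 with RWF against 9.43 and 9.20 with vehicle (-0.93, adjusted p = 0.0825). KRT5, the basal keratin, read 5.38 and 5.37 in RWF-treated WPMY-1 cells against 4.96 and 5.19 with vehicle, and 9.94 and 10.46 in RWF-treated BPH-1 cells against 10.92 and 10.97 with vehicle (-0.75, adjusted p = 0.271). Of 18 epithelial markers, 3 had a positive and 2 a negative BPH-1 difference with an unadjusted p under 0.05. The median BPH-1 difference of that list was 0.01, so KRT5 was not typical of it. AMTN, amelotin, a secreted protein known from tooth enamel, read between 3.62 and 4.48 in WPMY-1 cells, and in BPH-1 cells it read 7.42 and 7.31 with RWF against 5.30 and 5.63 with vehicle (1.90, adjusted p = 0.0825). TGM2, KRT5 and AMTN did not pass the adjusted test. The other genes called within BPH-1 cells, FBXO32, TMEM156 and GREM1, had WPMY-1 differences of 0.64, 0.36 and 0.53, beside 1.27, 1.13 and 0.87 in BPH-1 cells, so they were higher with RWF in both lines. The uncertain POTEF was the fifth.

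All 21 ER chaperone and ER-associated degradation genes had a positive interaction, where 60.1% of all genes did. The median differences were 0.18 in WPMY-1 and -0.03 in BPH-1 cells. Of the 21 interactions, 6 had an unadjusted p under 0.05, where 4.36% of all genes had such a positive one. These counts depended on normalization. After median centring 19 were positive, 3 with such a p, and after quantile normalization 21 were positive, 11 with such a p. HERPUD1 and EDEM1, which serve the removal of misfolded proteins from the ER, rose in WPMY-1 cells by 0.82 and 0.55 (adjusted p = 0.0279 and 0.0254), beside 0.38 and 0.16 in BPH-1 cells. Of 18 cholesterol synthesis genes 17 had a positive interaction, with medians of 0.86 in WPMY-1 and 0.43 in BPH-1 cells. HSD17B7, MVD, NSDHL and EBP rose in WPMY-1 cells, HSD17B7 by 1.87 (adjusted p = 0.0104), beside 0.62 in BPH-1 cells. The cholesterol median of 0.44 rested on the BPH-1 RWF arrays, being 0.77 without replicate 1 and 0.06 without replicate 2. Ribosome biogenesis genes had 21 of 22 negative interactions, with medians of -0.30 in WPMY-1 and -0.14 in BPH-1 cells. Of all genes 60.1% had a positive interaction, and of those at a mean level between 7 and 8 41.5% did. The list's median vehicle levels were 7.70 in WPMY-1 and 7.82 in BPH-1 cells. Only 2 of the 22 interactions had an unadjusted p under 0.05 (9.09%, where 8.05% of all genes did). POLR1E, a subunit of RNA polymerase I, fell by 1.21 in WPMY-1 cells (adjusted p = 0.00201), beside -0.20 in BPH-1 cells, and NTN4, the matrix protein netrin-4, rose by 1.59 (adjusted p = 0.00146), beside 0.53.

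Of 25 integrated stress response targets 10 interactions were positive (40%) and 15 negative, with medians of 0.41 in WPMY-1 and 0.40 in BPH-1 cells. Of 30 autophagy genes 14 were positive (46.7%) and 16 negative, with medians of 0.14 in WPMY-1 and 0.15 in BPH-1 cells. A positive interaction was found for 60.1% of all genes, and for 41.5% of those at a mean level between 7 and 8. The stress response and autophagy lists had median vehicle levels of 7.16 and 7.33 in WPMY-1 and 7.23 and 7.08 in BPH-1 cells. The median interactions of -0.07 and -0.02 changed sign among the alternatives, between -0.23 and 0.15 and between -0.08 and 0.02.

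**Figure D5:**
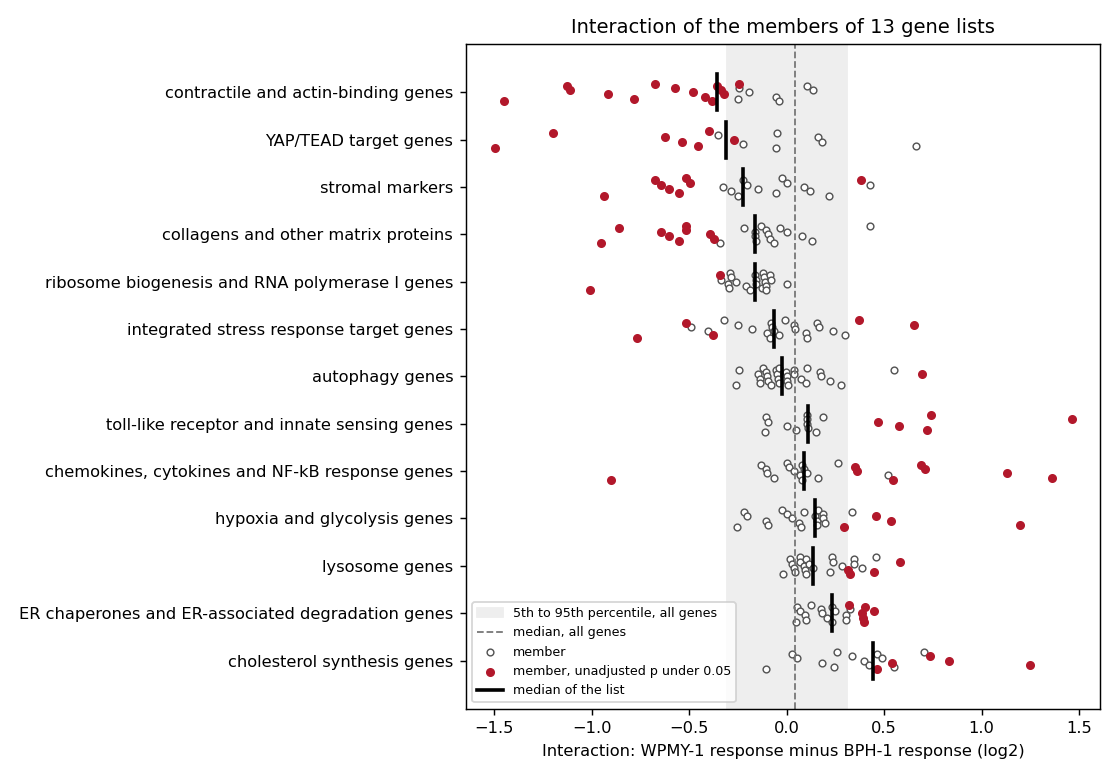
Interaction (log2, WPMY-1 response minus BPH-1 response) of each member of 13 gene lists, filled where the unadjusted p was under 0.05, with a bar at the list's median and a band from the 5th to the 95th percentile of all genes. The contractile list is centred at -0.36 and the ER chaperones at 0.23, while the stress response and autophagy lists are centred at -0.07 and -0.02.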

How the data were processed

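RNA of each group was read on Affymetrix Human Transcriptome Arrays 2.0, 2 per group. The deposited table holds log2 values for each array and transcript cluster, which the authors made with RMA according to the submitters' processing notes (no version given). RMA corrects background, normalizes the arrays together and summarizes probes, which takes out part of any shift of all genes. No further normalization was applied. The number of arrays limits the precision. Nothing in the labels shows the paired arrays of a group to be independent cultures, so every p-value reflects array-to-array spread alone, which could be technical.

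Genes were named from the platform annotation (23781 clusters with 1 symbol, 1543 with several, 42204 with none), and a gene was read by the brightest of its own clusters. 22167 of the 22465 genes were in RefSeq. Shared or overlapping probes were not checked.

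The interaction, the within-line and the untreated differences came from 1 limma 3.58.1 fit of the 4 groups (R 4.3.3, with 4 residual and 4.34 prior degrees of freedom). P-values were adjusted over all clusters by the Benjamini-Hochberg method, with a threshold of 0.05, and unadjusted p-values are from the same fit. A run on simulated independent noise checked the fit's median estimates only, and says nothing of the p-values on these arrays. Opposite genes had differences of opposite sign, each with an unadjusted p under 0.05. Called genes of 1 line passed the adjusted test there and were under 1.3-fold with an unadjusted p of 0.05 or more in the other line. The wider sets needed an unadjusted interaction p under 0.05 only, and on the BPH-1 side an unadjusted p under 0.05 with at least 1.3-fold in place of the adjusted test. Dim means under the 95th percentile of olfactory receptor clusters on the vehicle arrays of a line. 39 gene lists were described by counts and medians, with no test of the list. Members and lists were chosen with earlier results of these data known. The text names LY96, CXADR, STC1 and TPM1, the genes or clusters with the largest or lowest-p interaction in each direction (up to 5 where fewer pass), the genes called in BPH-1 cells, and called list members. Other genes were chosen after their values were seen: those of opposite sign, the largest differences of 1 line, and further list members. Alternatives were median centring, quantile normalization, a filter on dim clusters, the replicate number as a block, robust variances or a trend, each cluster's own variance, 1 cluster per gene, the mean of a gene's clusters, a lower background guide, and omission of each array in turn, where the lone array left in its group takes the spread of the others. Counting clusters with the same 8 values once was added after seeing the data. Python 3.11.15 with matplotlib 3.10.9 drew the figures.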

Additional observations from a re-analysis of the deposited data

Results flagged for a closer look

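The RWF effect differed between WPMY-1 and BPH-1 cells by the interaction test itself for 4 clusters, with interactions of 1.51 for TC09001869.hg.1, 1.5 for CXADR, 1.46 for LY96 and -1.31 for TC11002610.hg.1 (limma, adjusted p = 0.0455 each). A group of 2 arrays is too small for a check for a single outlying array.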

How the results depend on the processing

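Of 67528 clusters 4 were called (3 positive, 1 negative, all 4 in WPMY-1 cells only, 0 opposite, 0 in BPH-1 cells only), and 5816 had an unadjusted p under 0.05. Quantile normalization, median centring, the replicate block and the methods' t-test (each cluster's own variance) left 0 calls in each direction and class, with 5464, 5702, 6160 and 5326 clusters at an unadjusted p under 0.05. Leaving out dim clusters, so that 36232 were tested, gave 11 calls, 9 positive and 2 negative, 7 in WPMY-1 cells only and 4 opposite. With 1 cluster per gene there were 14 positive and 11 negative calls, 12 opposite, 10 in WPMY-1 cells only and 1 in BPH-1 cells only. Fewer tests are adjusted for in both of these. With 1 array left out, positive calls lay between 0 and 3, negative between 0 and 15, opposite between 0 and 5, WPMY-1 only between 0 and 12 and BPH-1 only between 0 and 1; the cause was not tested. A mean-variance trend gave 3 calls, and robust variances and counting identical clusters once 4 each. The labels do not say whether replicate numbers pair the arrays. Replicate deviations correlated between -0.105 and 0.27 among the groups, which cannot decide it with 2 arrays per group. The block removed all 4 interaction calls. It gave 1375 calls within WPMY-1 and 7 within BPH-1 cells, against 1033 and 27 without it. Within-line calls in WPMY-1 cells were 1879 without dim clusters, 1350 with 1 cluster per gene and 0 by the methods' t-test. In BPH-1 cells they were 72 without dim clusters, 39 with 1 cluster per gene, and 17 after median centring or with identical clusters counted once. After quantile normalization 2 were left in BPH-1 cells, and by the methods' t-test 0. Of 1626 values of 96 named genes and clusters under the alternatives, 0 changed sign, 46 lost and 21 gained a call. Most of these genes were chosen on the same arrays that each alternative used again, so a kept sign was likely in advance. Under the 75th percentile of the background guide, LY96, TC09001869.hg.1 and TC11002610.hg.1 were no longer dim in WPMY-1 cells with vehicle, and TC09001869.hg.1 also not in BPH-1 cells. The median interaction of all clusters was 0.04, -0.02 after median centring and 0.01 after quantile normalization.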
